A study of Mus musculus with 3 samples.

Results

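Histone genes were examined in polyA-selected RNA-seq of effector memory CD4-positive alpha-beta T cells, the antigen-experienced helper T cells that circulate through tissues. The members were the protein-coding genes of GENCODE M21 whose symbols begin with Hist1h to Hist4h, H2af, H3f3 or H1f, and all 82 were listed in the gene table of each library, among 55536 genes and 22028 protein-coding genes. By symbol, 67 were replication-dependent genes of the Hist clusters and 15 were variant genes. The cells came from 1 male C57BL/6J mouse, 7 months old, and gave 3 libraries that the labels call technical replicates of 1 biological replicate, so there was 1 group and no treatment. RNA had been sheared acoustically, with a size range of 100 to 300 bases. The spread given below is therefore between libraries of the same mouse, and the p-values measure that spread alone.

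Libraries 1, 2 and 3 held 16251564, 14878641 and 14152590 estimated gene counts. A gene with 0 counts could have had up to 3, which is 0.185, 0.202 and 0.212 CPM (each count scaled by its library's total) in the 3 libraries. These floors cover counting error only, since reads were not tied to molecular identifiers. All 6 markers listed for CD4 T cells (Trac, Trbc2, Cd3e, Cd3d, Cd4, Cd44) were at 10 TPM or more in every library. Of 14 markers of other cells, 3 were at 1 TPM or more in every library (Epcam at 5.24, Cd8b1 at 4.16 and Hbb-bs at 3.90 TPM on average), Trdc was at 0, and the 14 summed to 15.2, 17.2 and 14.7 TPM. TPM, which divides counts by transcript length and scales each library to the same total, is the scale of every level compared between genes here.

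Histones package DNA into nucleosomes, each built of H2A, H2B, H3 and H4, with H1 binding the DNA between them. Replication-dependent genes are mostly intronless, are expressed chiefly while DNA is copied, and give mRNAs that end in a short stem-loop bound by SLBP in place of a polyA tail. Variant genes such as H3f3a, H3f3b and H2afz give polyadenylated mRNAs through the cell cycle, and their proteins are deposited outside replication, so that resting cells such as memory T cells rely on them. Selection for polyA favours RNA with a tail, and the share of histone RNA that it left behind was not measured in these libraries.

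The stem-loop was read from the annotated transcripts because it is the feature that separates the classes. It was searched as a 16-base hairpin with a stem of 6 pairs, at most 1 of them mismatched, and a loop of 4 bases, placed after the stop codon. The letters GG opened it, CT closed the 5′ arm and AG opened the 3′ arm. The sites of the leading replication-dependent genes of 4 classes, and of the variant H2afx, are printed 5′ to 3′ as DNA from GENCODE M21 transcripts (GRCm38/mm10), with the hairpin in capitals.
Hist1h1c, chr13:23739507-23739536, plus strand: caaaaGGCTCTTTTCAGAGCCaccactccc
Hist3h2a, chr11:58955167-58955196, plus strand: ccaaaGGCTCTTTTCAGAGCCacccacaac
Hist2h2aa2, chr3:96239775-96239804, minus strand: aaaaaGGCTCTTTTCAGAGCCacccactga
Hist1h2ap, chr13:21833026-21833049, minus strand: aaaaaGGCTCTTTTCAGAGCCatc
Hist3h2ba, chr11:58949344-58949373, plus strand: ccaaaGGCTCTTTTCAGAGCCaccttccaa
Hist1h4d, chr13:23581945-23581974, plus strand: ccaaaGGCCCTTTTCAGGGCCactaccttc
Hist1h4n, chr13:21831789-21831818, minus strand: ctaaaGGCCCTTTTCAGGGCCatccaatta
Hist1h4m, chr13:21812124-21812147, plus strand: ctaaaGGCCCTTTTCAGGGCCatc
H2afx, chr9:44335235-44335264, plus strand: acaaaGGCCCTTTTAAGGGCCaccacctcc

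A hairpin after the stop codon was annotated for 46 of the 67 replication-dependent genes, and it began 21 to 58 bases after that codon (median 31.0). The form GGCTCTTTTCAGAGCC was shared by 26 genes of the H1, H2A, H2B and H3 classes. The form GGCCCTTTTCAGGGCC occurred in 7 genes, all of them H4. The other 13 genes had 6 further forms. Among the 15 variant genes, H2afx, whose protein is phosphorylated at DNA breaks, was the only gene with such a hairpin, and its transcript went on for 822 bases past it. No hairpin says only that the letters were not in the annotated model: 17 of the 27 replication-dependent transcripts without it had fewer than 16 bases annotated after the stop codon.

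Variant genes held most of the polyA-selected histone RNA in every library. They summed to 3884, 4298 and 3949.6 TPM in libraries 1, 2 and 3 (4044 ± 223, SD, n = 3), and the replication-dependent genes to 231, 227 and 229.8 TPM (229 ± 1.97). The 15 variant genes were thus 16.8, 18.9 and 17.2 times the 67 replication-dependent genes (17.6 ± 1.13), and the sums did not overlap. The size of this ratio depended on the counting: it was 6.80, 7.17 and 6.36 in the counts of a second deposited gene table, and 43.0, 52.0 and 43.6 over genes whose counts the quantifier assigned with an uncertainty of at most 10%. That limit left 87.9 of 229 TPM of the replication-dependent sum but 4043 of 4044 TPM of the variant sum. The last ratio therefore sets a part of the replication-dependent group against nearly the whole of the variant group. The replication-dependent share of histone TPM was 5.61%, 5.02% and 5.50%. Of all gene counts, replication-dependent genes took 0.0123% ± 6.81e-04 (5557 counts in all) and variant genes 0.279% ± 0.0139 (126006 counts). In bulk RNA, fewer dividing cells and less histone RNA in each cell cannot be told apart. Nor can either be told apart from the loss of RNA without a tail at polyA selection, so the ratio describes selected RNA only.

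At 1 TPM or more in every library stood 18 of the 67 replication-dependent genes (26.9%) and 8 of the 15 variant genes (53.3%), beside 45.5% of all 22028 protein-coding genes. With a mean of 1 TPM or more as the limit, the counts were 29 (43.3%) and 8 (53.3%), beside 47.7% of all. At 10 TPM or more in every library stood 4 replication-dependent and 8 variant genes, beside 7251 of all 22028 protein-coding genes. No count in any library was given to 11 replication-dependent genes and to the variant H2afb2, beside 2972 of all 22028. With those included, 21 replication-dependent and 4 variant genes had fewer than 3 counts in all libraries together, beside 4969 of all 22028.

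**Figure D1:**
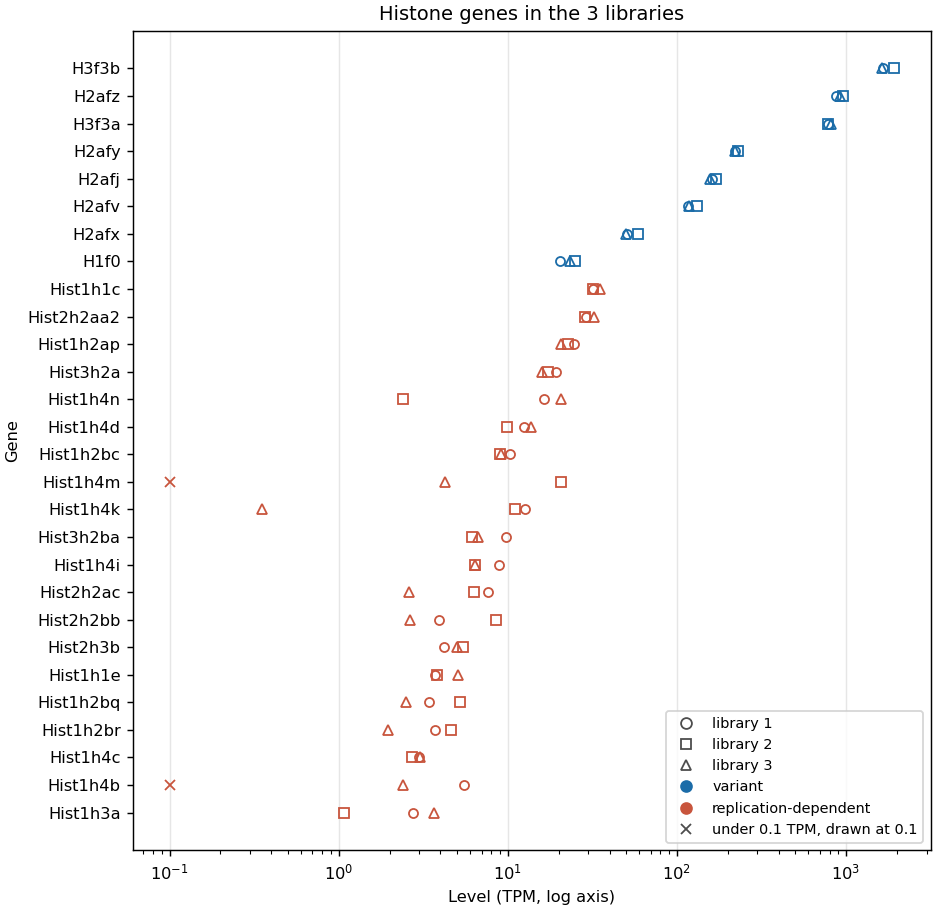
Level of histone genes in each library, in TPM on a log axis, for the 8 variant genes at 1 TPM or more and the 20 replication-dependent genes with the highest means; each symbol is 1 library and a cross stands for a value under 0.1 TPM. The 3 symbols of a variant gene lie close together, whereas Hist1h4n, Hist1h4m, Hist1h4k and Hist1h4b spread widely between libraries.

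Among the variants, an H3.3 gene was the highest by TPM, although not in the second gene table described further on. H3f3b (chr11:116021912-116027962), which encodes H3.3, was at 1655, 1934 and 1639 TPM (mean 1743) and was the 49th highest of all protein-coding genes. H3f3a (chr1:180800832-180813943), which encodes the same protein, was at 785, 781 and 819 TPM (mean 795). Their reading frames translated to 136 identical residues, and H3f3b exceeded H3f3a 2.19 ± 0.249 times, in every library. Library 2 was the highest for H3f3b and the lowest for H3f3a.

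H2A.Z was the other abundant variant. H2afz (chr3:137864487-137866922), whose product marks promoters and regulatory DNA, was at 872, 964 and 919.6 TPM (919 ± 46.0). H2afv, its paralogue, was at 117, 132 and 118 TPM (122 ± 8.61). The proteins differ at 3 of 128 residues, and H2afz exceeded H2afv 7.52 ± 0.258 times by TPM. In the second gene table the order was the reverse, with 161 counts for H2afz and 937 for H2afv over the 3 libraries. H3f3b, H2afz and H3f3a together held 85.5% ± 0.181 of the variant sum.

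The remaining detected variants fell from macroH2A to the linker histone H1f0. H2afy, which encodes the large macroH2A histone, was at 221, 231 and 221 TPM. H2afj was at 162, 170.1 and 157 TPM, and H2afx was at 50.6, 58.7 and 50.2 TPM. H1f0, the replacement linker histone of differentiated cells, was at 20.5, 25.1 and 23.3 TPM. By TPM the order in each library was H3f3b, H2afz, H3f3a, H2afy, H2afj, H2afv, H2afx and H1f0, with no overlap between neighbours, and this order did not hold in the second gene table. The other 7 variant genes, among them the germline genes H1foo, H1fnt and the H2afb family, and H2afy2 and H1fx, had means of 0 to 0.287 TPM.

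Transcript estimates split several variant genes. H3f3b-204, a transcript annotated as processed without a reading frame, took 49.4% ± 1.97 of the gene's TPM and the coding H3f3b-201 took 43.9% ± 2.01. H2afz was divided between the coding H2afz-201 at 53.9% ± 4.92 and H2afz-207 at 42.2% ± 4.96. H3f3a-201 held 88.3% ± 1.67 of its gene. A level assigned to a transcript rests on the annotated models, and the short H3f3b-204 (874 bases) held 19518 of the gene's 63032 estimated counts.

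Linker histone RNA was the class in which replication-dependent and variant genes were nearest. Hist1h1c, which encodes H1.2, was at 31.8, 32.0 and 34.9 TPM (32.9 ± 1.73, 1369 counts in all) and was the highest replication-dependent gene. It held 53.2% ± 2.56 of all H1 TPM, and H1f0 held 37.1% ± 2.91, so by TPM the values of Hist1h1c and H1f0 did not overlap. In the second gene table described further on, the order by counts was the reverse. There Hist1h1c had 129, 126 and 122 counts and H1f0 had 150, 167 and 161. Those counts are not divided by length, and the H1f0 model is the longer, at 2055 against 1560 bases. The 6 replication-dependent H1 genes summed to 38.5 ± 3.99 TPM and the 4 variant H1 genes to 23.4 ± 2.53 TPM.

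H2A was the largest replication-dependent class, at 84.4, 81.4 and 78.1 TPM over 18 genes. Hist2h2aa2 was at 29.1, 28.7 and 32.3 TPM, Hist1h2ap at 24.7, 22.7 and 20.8 TPM, and Hist3h2a at 19.2, 17.3 and 15.9 TPM. Hist3h2a was above Hist2h2ac, which was at 7.62, 6.31 and 2.59 TPM. Against the 9 H2A variant genes at 1424, 1557 and 1467 TPM these genes were a minor part of polyA-selected H2A RNA.

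For H2B and H4 no variant gene was among the members, so the replication-dependent genes were the whole of those classes. H2B summed to 35.2, 40.5 and 35.8 TPM over 18 genes, led by Hist1h2bc at 10.3, 8.98 and 9.16 TPM and Hist3h2ba at 9.78, 6.13 and 6.64 TPM. H4 summed to 63.4, 57.0 and 60.3 TPM over 13 genes. A nucleosome takes the core histones in equal amounts. By TPM, total H3 RNA was 42.5 ± 4.75 times total H4 RNA, and total H2A RNA was 42.2 ± 1.46 times total H2B RNA. These ratios set classes with polyadenylated variants against classes without them in polyA-selected RNA, so they do not give the proportions in the cells. They also depend on the table: the second gene table described further on gave H3f3b 2.57%, H3f3a 1.03% and H2afz 0.705% of their counts here. Among replication-dependent genes alone, H2A was 2.20 ± 0.193 times H2B, and H3 was 20.1% ± 0.973 of H4.

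Replication-dependent H3 was the lowest class. Its 12 genes summed to 12.1, 11.7 and 12.6 TPM, which was 0.479% ± 0.0414 of H3f3a and H3f3b together. Hist2h3b, the highest, was at 4.18, 5.45 and 5.01 TPM (58.8 counts in all). H3f3b differed from Hist1h3a at 5 of 136 residues and from Hist2h3b at 4.

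By cluster, the 54 Hist1 genes (chr13:21715763-23934851) summed to 153 ± 4.71 TPM. The 10 Hist2 genes (chr3:96219865-96270132) summed to 50.7 ± 3.24 TPM, the Hist3 pair Hist3h2a and Hist3h2ba (chr11:58948920-58956830) to 24.9 ± 3.49 TPM, and the lone Hist4 gene, Hist4h4, was at 0.587 ± 0.174 TPM. The 5 highest replication-dependent genes held 50.7% ± 4.65 of the replication-dependent sum.

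Many of these genes cannot be told from each other by sequence, which limits each single value. The 67 replication-dependent genes translated to 31 distinct proteins: 6 H1, 9 H2A, 12 H2B, 3 H3 and 1 H4. Each gene was counted by 1 reading frame, and these numbers depend on which frame was taken. Hist1h2bq and Hist1h2br were counted at 134 residues, more than their leading models of 381 bases can encode. Hist1h2bp was counted at 138 residues. Of the 3 H3 proteins, 1 is the 181-residue frame of Hist2h3c1, which had 0 counts. Every 50-base window of a gene's transcripts was searched in the transcripts of all other genes on both strands. A median of 45.9% of a replication-dependent gene's windows (range 0 to 100.0) occurred in no other gene, against 92.0% (53.2 to 100.0) for a variant gene. Of the replication-dependent genes, 34 had fewer than 50% unique windows and 5 had none (Hist2h2aa1, Hist2h2aa2, Hist2h2bb, Hist2h3b and Hist2h3c1).

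The quantifier's own uncertainty followed the same division. Assignment uncertainty is the deposited posterior standard deviation of a gene's count as a percentage of that count, taken here as the highest of the 3 libraries. Of the genes with 30 counts or more in all, 8 of 8 variant genes were at or below 10% (highest 1.09%) and 9 of 26 replication-dependent genes were (median 16.2%, highest 533%). Across 33 of these genes with counts in every library, the share of unique windows and the uncertainty had a Spearman rho of -0.759. The genes share libraries and depth, so this is a description across genes. Genes at or below 10% carried 38.3% ± 1.66 of the replication-dependent sum, and Hist1h1c (0.512%), Hist3h2a (1.49%), Hist3h2ba (2.81%) and Hist1h2bc (6.00%) were among them, as was Hist1h4d.

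**Figure D2:**
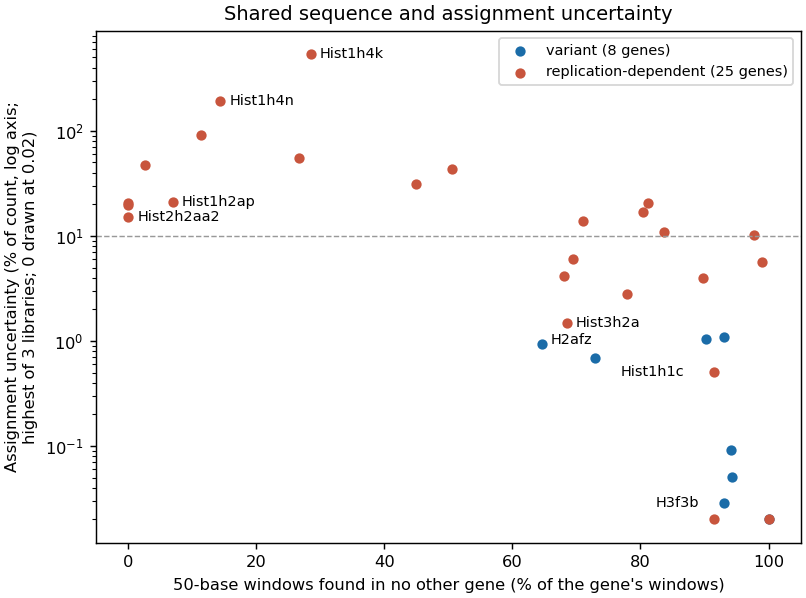
Share of each gene's 50-base windows found in no other gene (horizontal axis, %) against assignment uncertainty (vertical axis, % of the count on a log axis, highest of 3 libraries) for 33 histone genes with at least 30 counts in all and a count in every library; the dashed line is at 10%. All 8 variant genes lie below the line and most replication-dependent genes with few unique windows lie above it.

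The widest swings between libraries among the named genes were in H4. Hist1h4n was at 16.4, 2.40 and 20.7 TPM, Hist1h4m at 0, 20.7 and 4.25 TPM, and Hist1h4k at 12.6, 11.1 and 0.350 TPM. Library 2 was low for Hist1h4n and high for Hist1h4m, which shares 89.8% of its windows with Hist1h4n, including the stem-loop printed above. Their sum with Hist1h4k was 29.1, 34.2 and 25.3 TPM (coefficient of variation 15.1%). All 13 H4 genes encode the same 103-residue protein, and together they were at 63.4, 57.0 and 60.3 TPM, a coefficient of variation of 5.25%. A sum over more counts varies less by counting error alone, and the part of shared reads in the swings was not tested. Hist1h4k shares most with Hist1h4a (71.1% of its windows) and Hist1h4b (68.8%). Hist1h4d, with 89.8% unique windows, was at 12.5, 9.97 and 13.7 TPM, and Hist1h4i was at 8.90, 6.41 and 6.42 TPM.

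**Figure D3:**
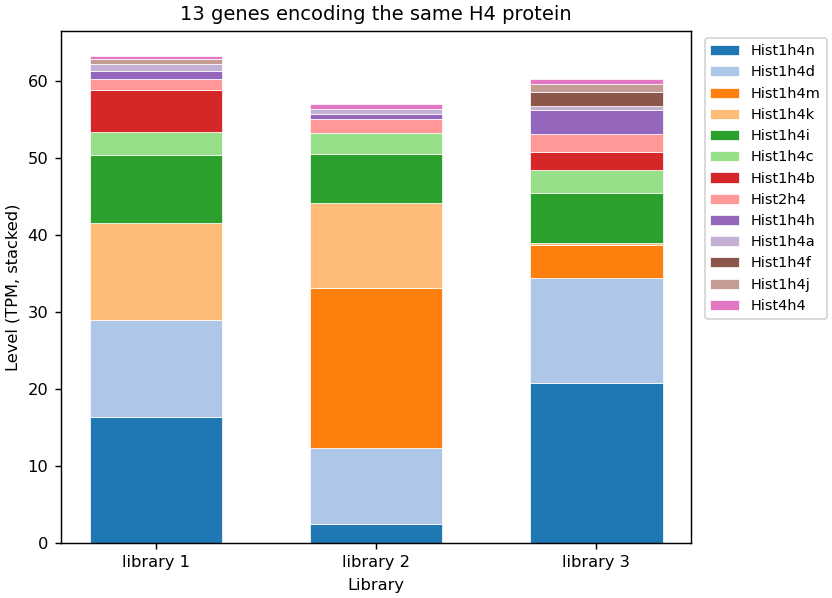
Stacked levels (TPM) of the 13 H4 genes in each library. The column heights, 63.4, 57.0 and 60.3 TPM, are similar, and the parts given to Hist1h4n, Hist1h4m and Hist1h4k differ between libraries.

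Other replication-dependent genes also share sequence with copies and overlapping genes. Hist2h2aa2 shares all of its windows with Hist2h2aa1 and with the annotated antisense gene Gm20633, and Hist2h2aa1 and Hist2h2aa2 together were at 29.6, 28.7 and 32.3 TPM. Hist2h3b and Hist2h2bb share all of theirs with the antisense gene Gm20628. The strand setting of the counts is not given in the sources used here, so sense and antisense reads at these loci cannot be told apart. Hist1h2ap shares 93.1% of its windows with Hist1h2ao, which was given 0 counts, and Hist1h2bq shares 97.3% with Hist1h2br. Hist3h2a shares 31.5% with Trim17, a gene that overlaps it.

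Where the annotated models end relative to the stem-loop differed between genes and between the levels they carried. Of 75 replication-dependent transcripts, 20 ended at most 50 bases after the hairpin, and they held 36.3% ± 2.94 of the replication-dependent TPM. A further 28 transcripts of 26 genes went more than 50 bases past it and held 43.5% ± 1.93, and 27 without a hairpin held 20.2% ± 4.07. At most 10 bases, the closest match to a processed end, was met by Hist1h2ap and Hist1h4m only, with 13.6% ± 4.82. Such an end is rare elsewhere: a hairpin at most 50 bases from the end was found in 27.8% of the 72 protein-coding replication-dependent transcripts and in 0.0579% of 58696 protein-coding transcripts of other genes.

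Of the 28 transcripts that ran past the hairpin, 14 carried the polyadenylation signal AATAAA or ATTAAA in their last 50 bases, and these 14 held 30.6% ± 1.69 of the replication-dependent TPM. The signal was in 26.4% of protein-coding replication-dependent transcripts and in 50.2% of protein-coding transcripts of other genes. Sites with AATAAA from replication-dependent and variant models are shown side by side, with the signal in capitals, 5′ to 3′, GRCm38/mm10. They were chosen for holding it: H3f3b-204, the transcript with the larger share of H3f3b, has neither signal in its last 50 bases, and H2afz-201 has ATTAAA.
Hist1h1c, chr13:23740330-23740359, plus strand: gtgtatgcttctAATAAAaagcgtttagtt
Hist3h2a, chr11:58956785-58956814, plus strand: aggtatatgcccAATAAAataagagtacgt
Hist3h2ba, chr11:58949495-58949524, plus strand: cataatggtattAATAAAtttggttcaatt
H1f0, chr15:79030471-79030500, plus strand: ttaaaactttaaAATAAAactggaaaggaa
H3f3b-201, chr11:116021987-116022016, minus strand: ataggccttacaAATAAActagtaagtttg
H2afz-207, chr3:137866790-137866818, plus strand: gtggataagctcAATAAAggtcatatccc

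The Hist1h1c model continued for 840 bases past its hairpin, that of Hist3h2a for 1643 and that of Hist3h2ba for 169. The model of Hist1h4d continued for 770 bases with no such signal in its last 50. Of the 9 replication-dependent genes with 30 counts or more and an uncertainty at or below 10%, 7 had a model running more than 50 bases past the hairpin, 2 (Hist1h2bc and Hist2h2be) had no annotated hairpin, and none had a model ending within 50 bases of it. Of the other 17 genes with 30 counts or more, 5 had a model ending within 50 bases of the hairpin, with a median length of 482 bases and a median of 10.2% unique windows. The 7 models of the first set had medians of 1630.0 bases and 89.8% unique windows, so transcript end, length and uniqueness cannot be told apart here. TPM divides by the annotated length, and a model longer than the RNA present understates its level.

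**Figure D4:**
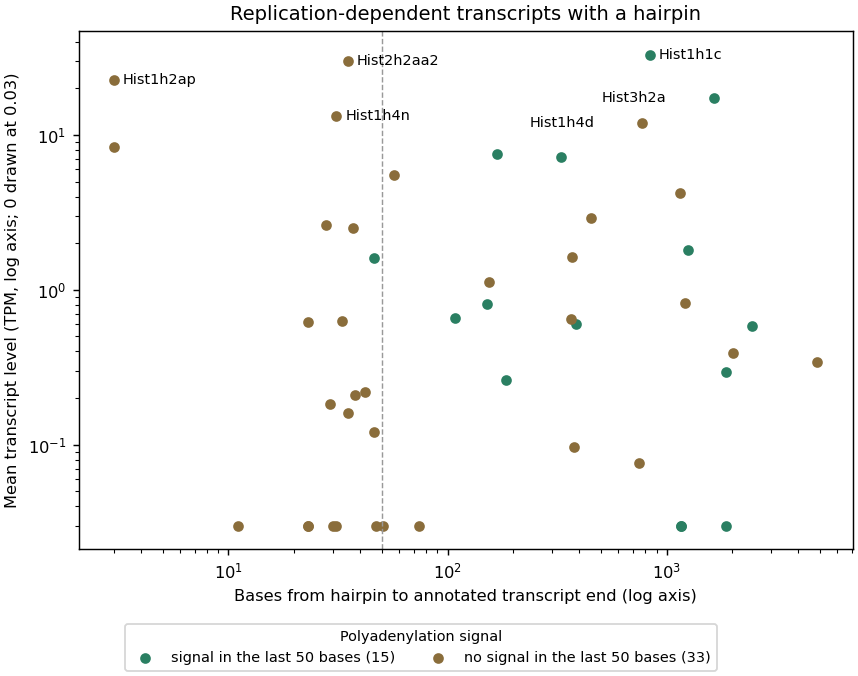
Bases from the hairpin to the annotated end (horizontal log axis) against mean level over 3 libraries (TPM, vertical log axis) for 48 replication-dependent transcripts with a hairpin; the dashed line is at 50 bases and colour shows whether a polyadenylation signal lies in the last 50 bases. High levels occur on both sides of the line, with Hist1h2ap and Hist2h2aa2 to the left and Hist1h1c and Hist3h2a to the right.

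H2A and H2B genes formed 12 divergent pairs whose starts lay 176 to 306 bases apart, and in 1 pair, Hist1h2ap with Hist1h2br, both genes were at 1 TPM or more in every library. Most genes of these pairs were below that level, and Hist1h2ap and Hist1h2br have 6.93% and 11.3% unique windows and uncertainties of up to 21.1% and 90.4%. Hist1h2bc was at 9.50 ± 0.744 TPM on average and its partner Hist1h2ac at 0.390 ± 0.260 TPM. Hist2h2ac was at 5.51 ± 2.61 TPM and its partner Hist2h2be at 1.67 ± 0.645 TPM, and the values of Hist2h2ac rest on 72.7 counts and an uncertainty of up to 31.4%.

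Promoters, 250 bases before to 50 after each start, were taken from RefSeq on GRCm38.p6 and matched 61 replication-dependent and 12 variant genes. The octamer ATTTGCAT, searched on both strands, was in 13 replication-dependent promoters (21.3%), 7 of H2A and 6 of H2B genes, and in none of H1, H3, H4 or variant genes, beside 1.74% of 32851 promoters. Windows of divergent pairs overlap, so a site can be counted for both genes. The same octamer was counted for Hist1h2aa and Hist1h2ba, for Hist1h2ae and Hist1h2bg, and for Hist1h2ah and Hist1h2bk. TATAAA was in 55.7% of replication-dependent promoters, in 0 of 12 variant promoters and in 13.6% of all. CCAAT was in 85.2% of replication-dependent promoters (3 of 12 of H4 and 100.0% of each other class), 75.0% of variant and 37.4% of all promoters. The promoter of Hist2h2ac, which faces that of Hist2h2be, holds all 3 motifs and is shown from 5′ to 3′ on the minus strand at chr3:96220831-96221130, with every match on either strand in capitals.
Hist2h2ac: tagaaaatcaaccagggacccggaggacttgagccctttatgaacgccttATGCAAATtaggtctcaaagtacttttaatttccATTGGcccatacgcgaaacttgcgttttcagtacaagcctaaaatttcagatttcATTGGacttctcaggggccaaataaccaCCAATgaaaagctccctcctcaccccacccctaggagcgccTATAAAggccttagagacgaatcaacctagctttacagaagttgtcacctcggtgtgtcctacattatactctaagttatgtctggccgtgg
A match describes the letters in this window and was not tested as a bound site.

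The 3 libraries were compared gene by gene with a chi-square test of homogeneity on rounded counts, TMM scaling and Benjamini-Hochberg adjustment over all 13949 genes with 30 counts or more. It called 15 of the 34 histone genes tested, 10 replication-dependent and 5 variant, beside 57.2% of all genes. It called 7 of 27 histone genes without library 2, beside 27.5% of all genes, and 9 of 30 without library 3, beside 42.3%. Dividing by the median inflation of the statistic over all genes (6.45) left 2 histone genes beside 4.45% of all genes. These were H3f3b, with 21451, 22878 and 18703 counts (highest over lowest CPM 1.22, adjusted p = 1.26e-15 in the inflation-corrected chi-square test), and Hist1h4m, with 0, 64.7 and 13.2 counts (adjusted p = 0.0153 in the same test). The test takes estimated counts as given and leaves out assignment uncertainty. For Hist1h4m that uncertainty was 24.3% to 123% where it had counts, and 10.2% of its windows were unique. For Hist1h4m a difference between libraries therefore cannot be told from a different assignment of shared reads. H3f3b had an uncertainty of at most 0.0286% and 93.1% unique windows. In the second gene table described further on it had 547, 554 and 522 counts and was not called. The cause of its difference in the first table was not tested.

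A second gene table of whole-number counts held 79 of the 82 members and gave much lower values for the abundant variants. It held 32.1% ± 0.524 of the first table's counts over all genes, 25.5% ± 0.894 over replication-dependent genes and 7.51% ± 0.269 over variants. The second table gave H2afz 161 counts in all (0.705% of the first), H3f3a 209 (1.03%) and H3f3b 1623 (2.57%), but H2afy 4397 (41.4%) and H2afv 937 (43.6%). The ratio fell with level in general: its median was 53.7% over 4335 protein-coding genes with 1000 to 5000 estimated counts, 19.0% (quartiles 9.63% and 33.1%) over 257 genes with 20000 to 50000, and 9.71% (quartiles 4.91% and 14.6%) over 62 genes with 50000 to 100000. H2afz, H3f3a and H3f3b were below the lower quartile of their ranges. Among the 8 detected variants the second table put H2afy first, above H3f3b in every library (1538, 1491 and 1368 against 547, 554 and 522 counts), and H3f3a and H2afz last. These counts are not divided by length, and which table is nearer to the RNA present was not tested.

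In the same table replication-dependent genes ranged from 0 to a larger share than the table as a whole. Hist1h1c held 377 counts (27.5%), Hist3h2a 315 (31.1%) and Hist1h4d 186 (51.3%). Hist2h2aa2, Hist1h2ap and Hist1h4m held 0, and Hist1h4n held 2. These 4 genes had 0 to 14.4% unique windows, and Hist1h1c, Hist3h2a and Hist1h4d had 68.5% to 91.5%. Uniqueness did not order all genes: Hist1h2bc, with 69.4% unique windows, held 24 counts (8.24%), and Hist2h2ac, with 45.0%, held 46 (63.3%).

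RNA of most listed genes for making and placing histones was detected. The lists here and below are to be read beside the 45.5% of all 22028 protein-coding genes at 1 TPM or more in every library. Of 20 listed genes for histone mRNA processing and decay, 19 were at 1 TPM or more in every library, among them Slbp, the stem-loop binding protein (172, 196 and 177 TPM), Npat, the activator of histone gene transcription (13.2, 18.6 and 14.9 TPM), and the uridylyltransferases Tut4 (162 ± 20.1 TPM) and Tut7 (157 ± 9.46 TPM). The exception was Zfp473 at 0.727 ± 0.344 TPM. Of 8 genes for deposition at replication, 7 passed, with Rbbp4 at 215 ± 9.89, Nasp at 75.4 ± 4.05 and the chaperone Asf1b at 6.56 ± 2.26 TPM, whereas Chaf1a, the large subunit of the CAF-1 complex, was at 1.06, 0.870 and 0.670 TPM.

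All 14 listed genes for replacement deposition passed, with a median of 46.1, 55.5 and 53.6 TPM in the 3 libraries, against 19.5, 21.8 and 18.9 TPM for the genes of replication-coupled deposition. Anp32e, which removes H2A.Z, was at 169 ± 6.13 TPM, Atrx at 139 ± 4.19 TPM, its partner Daxx at 52.7 ± 12.4 TPM and Hira, which deposits H3.3, at 14.8, 7.56 and 11.3 TPM. Cenpa, the centromeric H3 variant that the symbol rule does not take in, was at 127, 128 and 118 TPM. All 7 general histone chaperones passed, led by Npm1 (480.5 ± 6.93 TPM) and Set (242 ± 10.2 TPM).

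Genes of S phase were present at unequal levels. Of 18 listed, 16 were at 1 TPM or more in every library, beside 45.5% of all protein-coding genes. The median was 17.5 ± 2.20 TPM, and the list was led by Pcna (158 ± 6.11 TPM) and Cdt1 (92.5 ± 1.82 TPM). The other two were Mki67 (1.03, 0.360 and 1.31 TPM) and Cdc6 (0.403 ± 0.318 TPM). The part of dividing cells in the replication-dependent histone level was not tested.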

How the data were processed

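PolyA-selected RNA from T cells of 1 mouse was sequenced as 3 libraries, numbered by the technical replicate in the labels. Per the file headers, the authors deposited a gene and a transcript table per library with expected counts (each an estimated count that shares ambiguous reads among genes), TPM, FPKM, posterior mean TPM and the posterior standard deviation of each count. The assembly is mm10, per the labels, and the gene identifiers match GENCODE M21. A second table deposited by the authors holds whole-number counts of 22457 genes. Sorting, library kit, aligner, quantifier, versions and strand setting were not given in the sources used here.

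CPM was computed from the counts. Estimated counts were rounded for the library test, scaled with TMM factors (edgeR 4.0.16, R 4.3.3) or DESeq2 1.42.0 size factors. The 50-base window was taken because transcript length less effective length was 49. Hairpins, signals and translations were read from GENCODE M21 transcripts with Python 3.11.15, scipy 1.17.1. The chi-square test was tested on simulated data: for libraries 1, 2 and 3 it called 62.0%, 80.0%, 96.0% and 100.0% of 50 genes each changed 1.5, 2.0, 3.0 and 4.0-fold, and 0.0436% of 13749 unchanged genes. With every molecule read 4 times it called 36.5% of 13468 unchanged genes, and the corrected test then called 0. The simulated inflation was the same for every gene, which division by a single median removes by design. Whether the inflation in the data, with a median of 6.45, was the same for every gene was not tested, so the simulation cannot vouch for the corrected calls.

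The members, lists and tests were chosen with earlier results of these data known. Named genes are the variants with a mean of 1 TPM or more, the 12 replication-dependent genes with the highest means, the highest of each class, those the corrected test called, and set members of the related lists. Zfp473, Mki67, Cdc6 and replication-dependent genes named as pairs, copies or exceptions were chosen after their values were seen. Other settings tried were other units, limits and scalings, the second table, and leaving out libraries or uncertain genes.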

Additional observations from a re-analysis of the deposited data

Results flagged for a closer look

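H3f3c, annotated as a processed pseudogene on chromosome 2 and so no member of the protein-coding set, carried 1935 estimated counts in all, far above the limit of 3 counts that a count of 0 allows. It was at 219.8, 171 and 187 TPM in libraries 1, 2 and 3 (193 ± 24.8, SD, n = 3), with an assignment uncertainty of up to 8.75%. H3f3a shares 245 of its 3641 50-base windows (6.73%) with it. That percentage is over the windows of H3f3a. The share of H3f3c's own windows found in H3f3a was not computed, so the overlap can be a larger part of H3f3c. The part of H3f3a reads in this value was not tested.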

How the results depend on the processing

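No paired analysis was possible because the libraries form 1 group. The replication-dependent sum of 229 TPM was 139 in FPKM, 123 in CPM, 205 as posterior mean TPM, 96.4 CPM in the second table, 87.9 over genes with uncertainty of at most 10% and 196 without Hist1h1c (leaving out a library: 228 to 230.3). The variant sum of 4044 TPM was 2454 in FPKM, 2785 in CPM, 3476 as posterior mean TPM, 652 CPM in the second table and 2301 without H3f3b (3917 to 4124). The replication-dependent share of histone TPM (5.38%) was 4.24% in CPM, 12.9% in the second table, 2.14% over certain genes and 7.87% without the highest member of each group (5.26% to 5.55%). The limit on uncertainty left 4043 TPM of variants, so the 2.14% sets a part of the replication-dependent genes against nearly all variant TPM. Replication-dependent genes at 1 TPM in every library (18) were 29 by mean TPM and 7 among certain genes (19 to 25). Their share of gene counts was 0.00964% in the second table (0.0119% to 0.0126%). Histone genes called between libraries (15) were 8 of 19 with at least 100 counts (61.9% of all genes), 2 of 34 after division by the median inflation (4.45%), 6 of 17 among certain genes (57.5%) and 0 of 17 in the second table (27.2%, and 0 at an unadjusted chi-square p under 0.05), and 7 to 10 with a library left out, where the share of all genes was 27.5% to 43.6%. Transcripts ending within 10 bases of the stem-loop (13.6% of replication-dependent TPM) held 6.37% of expected counts, and 36.3% at 50 bases (10.8% to 15.0%). The causes were not tested. Of 105 values of single named genes under other settings, 74 stayed within the spread between libraries and 31 moved. With FPKM 4 of 21 stayed and 17 moved, and with posterior mean TPM 7 of 21 stayed and 14 moved. FPKM is TPM times a constant within each library, so it changes the unit only, here and for the sums above. Whether a gene moved with FPKM was set by that constant and the gene's own spread, and says nothing on processing. Leaving out library 1, 2 or 3 moved 0 of 21 each time. That outcome was fixed in advance, since a mean over fewer of the same libraries cannot leave their spread. Among the low genes, 21 replication-dependent genes had fewer than 3 counts in all, and the parts of depth and of shared sequence in this were not tested.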
